A study of Macaca mulatta with 12 samples.

Results

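The turnover of T cell clones was followed in the blood of rhesus macaques (Macaca mulatta) given apoptotic donor leukocytes (ADLs) by comparing 2 pairs of T cell receptor beta chain (TRB) libraries. Each pair joined a day -5 library with the last library carrying the same animal name: Nebula at day -5 and day 0, and Amazo at day -5 and day +3. These are 4 of the 12 libraries of the series, and they hold 116534 of its 205174 listed clonotypes. Days are counted from an intended transplant on day 0, with ADLs infused on day -7 and day 1. Day -5 fell 2 days after the first infusion, day 0 fell 7 days after the first infusion, and day +3 fell 2 days after the second. Per the study, the recipients were nondiabetic, nontransplanted adult males of its Cohort A, and each received leukocytes from a donor that differed at MHC class I and shared an MHC class II DRB allele. ADLs are cells of the donor's spleen and blood, enriched for B cells and fixed with ethylcarbodiimide, which sets them on the path to apoptosis. All recipients also received transient immunosuppression with an anti-CD40 antibody, rapamycin, an antibody to the interleukin-6 receptor and a soluble tumor necrosis factor receptor, so no library shows the effect of ADLs alone. RNA came from frozen blood lymphocytes that were not sorted, so CD4+ and CD8+ T cells cannot be told apart.

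The beta chain of the T cell receptor is assembled in the thymus by joining 1 V, 1 D and 1 J gene segment, with bases trimmed and added at the joints. The joined region is called complementarity-determining region 3 (CDR3), and its sequence serves as a tag that all descendants of a T cell carry. A clone that divides after meeting its antigen takes a larger share of the repertoire, and a clone that dies or leaves the blood takes a smaller one. Naive T cells are mostly present as very small clones, so that 2 blood samples from an animal draw largely different naive cells, whereas large memory and effector clones are drawn each time.

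Here a clonotype is a CDR3 nucleotide sequence, and its share is its count divided by the total count of its library. Clonotypes of day -5 were placed in a high tier (at least 0.1% of counts), a middle tier (0.01 to 0.1%) and a low tier (below 0.01%). A clonotype persisted if the later library of the pair held at least 1 count of it, and is otherwise called lost, which means only that it was not found at the later depth. With 1 library per time point in each pair, no test between times was possible. Values are given with 95% Wilson intervals, or exact conditional binomial intervals for ratios, which cover counting error only. PCR copies of a molecule are not independent, so the true uncertainty is larger.

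The 5 largest clonotypes at day -5 of each pair are shown because they carry the high-tier results. Bases lying between the parts aligned to the V and J genes are in capitals, and D gene bases are included in them. The sequences run from the conserved cysteine codon to the last codon of the CDR3.
Nebula 1, TRBV6-3 with TRBJ1-1: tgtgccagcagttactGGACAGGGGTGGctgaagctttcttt
Nebula 2, TRBV23-1 with TRBJ2-7: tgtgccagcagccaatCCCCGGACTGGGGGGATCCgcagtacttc
Nebula 3, TRBV12-2 with TRBJ1-5: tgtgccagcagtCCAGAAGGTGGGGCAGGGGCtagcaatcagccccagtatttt
Nebula 4, TRBV12-3 with TRBJ1-2: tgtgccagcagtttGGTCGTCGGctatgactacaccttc
Nebula 5, TRBV4-2 with TRBJ2-2: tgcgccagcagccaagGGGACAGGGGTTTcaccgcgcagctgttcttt
Amazo 1, TRBV9 with TRBJ2-3: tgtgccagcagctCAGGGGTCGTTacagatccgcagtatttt
Amazo 2, TRBV12-2 with TRBJ2-1: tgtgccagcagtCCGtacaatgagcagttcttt
Amazo 3, TRBV29-1 with TRBJ2-1: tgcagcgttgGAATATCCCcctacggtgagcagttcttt
Amazo 4, TRBV9 with TRBJ1-1: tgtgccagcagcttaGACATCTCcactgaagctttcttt
Amazo 5, TRBV12-2 with TRBJ2-3: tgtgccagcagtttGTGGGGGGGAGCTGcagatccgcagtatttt
All 10 are in frame without a stop codon. Nebula 4, Amazo 2 and Amazo 5 aligned to more than 1 V gene, so their V gene is uncertain.

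The 4 libraries held 258096 to 426198 counts in 24945 to 35116 clonotypes, and 1 count was 0.000235 to 0.000387% of a library. If each count stood for its own molecule, a count of 0 allowed a share of up to 3 counts. That is 0.00116% at Nebula day 0 and 0.000988% at Amazo day +3. The counts of single clonotypes did not start at 1 and fall off smoothly but peaked at 12 counts in the Nebula day -5 library, 7 at Nebula day 0, 4 at Amazo day -5 and 6 at Amazo day +3. A count therefore cannot be read as a number of cells.

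The labels were checked by the overlap of whole repertoires before any clonotype was compared. The Morisita-Horn index, which runs from 0 for no shared clonotype to 1 for identical shares, was 0.889 between Nebula day -5 and day 0 and 0.969 between Amazo day -5 and day +3. Both Nebula libraries overlapped at 0.00114 or less with every library of another name. The 2 Amazo libraries, however, overlapped at 0.896 to 0.977 with the libraries labelled Rocket, a further animal name, whereas the library labelled Amazo at day -4 overlapped with Amazo day -5 at 0.0116. The libraries labelled Amazo day -5 and Amazo day +3 thus share a repertoire with each other and with the Rocket libraries, but not with the other Amazo library. Which animal they came from was not tested, nor whether their day labels hold. "Amazo pair" and the days given for it below name the labels only. In what follows, the Nebula day -4 library and the Rocket libraries are used as further libraries of the same repertoires, and the remaining post-infusion libraries as libraries of other repertoires.

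Persistence rose with clone size in both pairs. Every clonotype of the high tier was found again: 21 of 21 in the Nebula pair (100%, 84.5 to 100%) and 47 of 47 in the Amazo pair (100%, 92.4 to 100%). In the middle tier, 361 of 488 Nebula clonotypes (74.0%, 69.9 to 77.7%) and 252 of 263 Amazo clonotypes (95.8%, 92.7 to 97.6%) were found again. In the low tier, which holds nearly all clonotypes, only 1552 of 29841 (5.20%, 4.95 to 5.46%) and 1861 of 34806 (5.35%, 5.12 to 5.59%) were. Over all clonotypes, 6.37% persisted in the Nebula pair and 6.15% in the Amazo pair, which is the background against which each tier is to be read.

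The tiers weighed differently in the 2 repertoires. At day -5 the high tier held 6.21% of Nebula counts and 40.4% of Amazo counts, and the same clonotypes held 6.71% and 44.2% at the later time. The middle tier held 9.87% and then 5.54% in the Nebula pair, and 6.01% and then 4.59% in the Amazo pair. The low tier fell most, from 83.9% to 7.05% of counts in the Nebula pair and from 53.6% to 5.94% in the Amazo pair, because most of its clonotypes were not found again. In all, the persisting clonotypes made up 20.7% of day -5 counts and 19.3% of day 0 counts in the Nebula pair, and 51.4% and 54.7% in the Amazo pair.

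These shares were set beside those found without a long interval. Of the Nebula day -5 clonotypes, the library of day -4, drawn 1 day later and holding only 42695 counts, contained 21 of 21 in the high tier, 346 of 488 in the middle tier (70.9%, 66.7 to 74.8%) and 1095 of 29841 in the low tier (3.67%, 3.46 to 3.89%). The high and middle tiers were recovered at day 0 about as completely as at day -4, with overlapping intervals, and the low tier somewhat more completely. The day 0 library was much deeper, with 258096 counts. Time and depth therefore cannot be told apart in any tier here. Of the Amazo day -5 clonotypes, the Rocket day -5 and day -4 libraries contained 95.4% and 95.8% of the middle tier and 4.48% and 6.71% of the low tier. The Amazo day +3 library lay within these ranges to 3 digits, and its label places it after the second infusion. In libraries of other repertoires the low tier was found at 0.261 to 0.345% for Nebula and 0.112 to 0.669% for Amazo, so both pairs recovered far more of the low tier than unrelated repertoires did. The middle tier was found there at 0.615 to 1.43% and 0 to 4.18%. The high tier was found there more often by the same 1-count rule, at 0 to 14.3% for Nebula and 0 to 46.8% for Amazo. Where found, its median counts were only 1 to 1.5 and 1 to 3.

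The pairs compared differently when abundance was expressed on the scale of each library's own count peak, a comparison chosen after the counts were seen. A middle-tier clonotype held a median of 5.25 times the peak count in the Nebula day -5 library and 14.5 times the peak in the Amazo library. Among middle-tier clonotypes of at least 10 times the peak, 86 of 88 persisted in the Nebula pair (97.7%, 92.1 to 99.4%) and 211 of 219 in the Amazo pair (96.3%, 93.0 to 98.1%). At equal multiples below that, the order of the middle tier was turned round and persistence was higher in the Nebula pair. It rose from 4.47% of clonotypes at 1 times the peak to 9.63% at 2, 21.9% at 3, 48.6% at 4, 84.3% at 5 to 9 and 98.2% at 10 or more. The corresponding Amazo values were 3.75%, 4.94%, 11.9%, 26.0%, 62.5% and 96.9%. The intervals of the pairs did not overlap from 1 to 9 times the peak. Depth on this scale differed, however. Total counts divided by the peak were 35516.5 at Nebula day -5 and 36870.9 at day 0. In the Amazo pair they were 87041.2 at day -5 and only 50587.5 at day +3. Whether this loss of depth accounts for the order of the pairs was not tested. Clonotypes whose count rounded to 0 times the peak were found again at 2.16% and 2.56%, still above the range in other repertoires (0.436 to 0.774% and 0.133 to 0.488%).

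**Figure D1:**
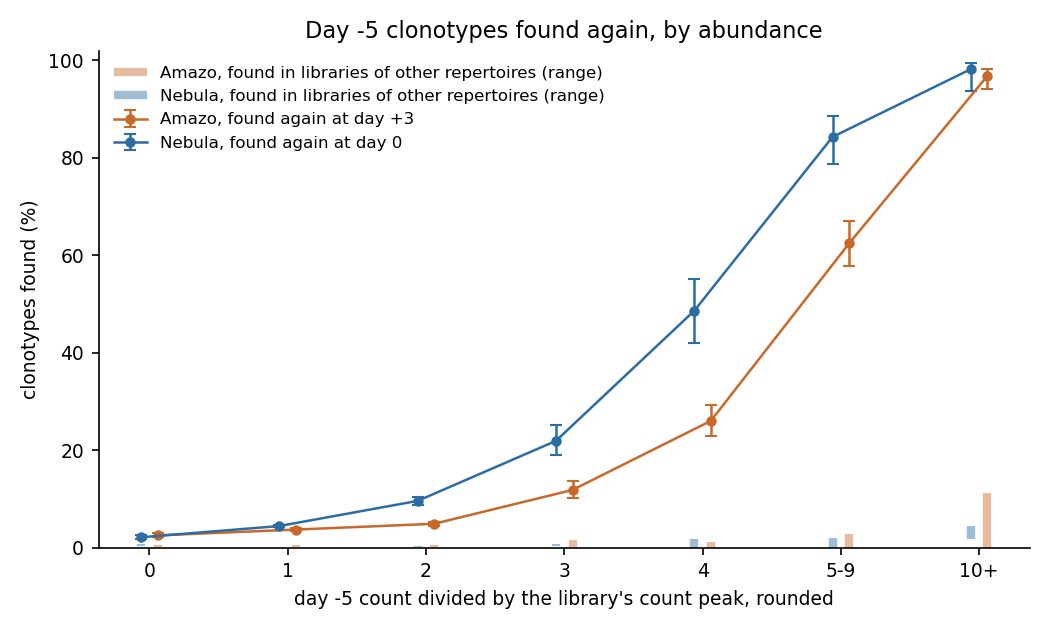
Percentage of day -5 clonotypes found again (vertical axis) against the day -5 count divided by the count peak of the library and rounded (horizontal axis), for the Nebula pair (blue) and the Amazo pair (orange). Points carry 95% Wilson intervals, and pale bars give the range over libraries of other repertoires. Both curves climb from under 5% at 1 times the peak to over 96% at 10 times or more, with the Nebula points higher in between. On this scale the later library was shallower than the day -5 library in the Amazo pair only.

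A low-tier clonotype had a median day -5 count of 1 times the peak in the Nebula pair and 1.25 times the peak in the Amazo pair. Whether the cells were absent from the later blood or only from the RNA that was sampled was not tested.

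The high tier kept its order. Counts at day -5 and at the later time were correlated over the high-tier clonotypes with Spearman's rho of 0.786 in the Nebula pair (21 clonotypes) and 0.950 in the Amazo pair (47 clonotypes), given as a description, since clonotypes of a library share its total count. Of the 10 largest clonotypes at day -5, 7 were among the 10 largest at day 0 in the Nebula pair and 9 were among the 10 largest at day +3 in the Amazo pair. The median log2 ratio of later to day -5 share was -0.27 in the Nebula high tier (range -1.26 to 0.76) and 0.11 in the Amazo high tier (range -1.65 to 0.72). Of the Nebula clonotypes, 15 lay below their day -5 share and 6 above, whereas of the Amazo clonotypes 19 lay below and 28 above.

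Nebula 1, the dominant clonotype of its pair, went from 8029 counts (1.88%, 1.84 to 1.93%) at day -5 to 7305 counts (2.83%, 2.77 to 2.90%) at day 0, and the ratio of shares lay between 1.46 and 1.55. It was also the largest of these clonotypes at day -4, with 1738 counts or 4.07%. Its share was therefore highest in the middle one of the 3 Nebula libraries. Nebula 2 went from 0.718% to 0.834%, and Nebula 3 from 0.402% to 0.332%. Nebula 4 went from 0.347% to 0.232%, and Nebula 5 from 0.310% to 0.276%. None of these 5 changed by 2-fold between day -5 and day 0, and all but Nebula 4 stayed within the 5 largest. Nebula 2 to 5 also had their highest shares at day -4, at 1.15%, 0.522%, 0.415% and 0.541%. The whole high tier held 10.4% of counts at day -4, against 6.21% at day -5 and 6.71% at day 0. The day -4 maximum was therefore not particular to Nebula 1, and that library held only 42695 counts.

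The Amazo repertoire was led by several clonotypes of similar size. Amazo 1 held 14330 counts (4.12%) at day -5 and 12414 (4.09%) at day +3, a ratio of 0.994 (0.970 to 1.02) whose interval includes no change. Amazo 2 went from 4.06% to 5.06%. Amazo 3 went from 13409 counts (3.85%) to 17849 counts (5.88%), a 1.53-fold higher share (1.49 to 1.56), and became the largest clonotype. Amazo 4 went from 3.44% to 3.34%, and Amazo 5 from 2.60% to 2.72%. These 5 clonotypes were the 5 largest at both times. All 5 were also large in the Rocket libraries, where Amazo 3 held 46508 counts at day -5 and 16247 at day -4. In the other repertoires the same 5 held at most 13 counts.

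Large falls were few in the high tier and large rises were absent. In the Nebula pair 2 of 21 high-tier clonotypes were at least 2-fold lower at day 0 and 0 were at least 2-fold higher, against 58.3% lower and 1.38% higher among all 509 clonotypes of at least 0.01%. Of the 47 in the Amazo pair, 5 were at least 2-fold lower and 0 were higher, against 36.1% and 3.23% of all 310. The shares of 2-fold falls over all clonotypes of at least 0.01% thus came almost wholly from the middle tier, where 295 of 488 Nebula clonotypes and 107 of 263 Amazo clonotypes were at least 2-fold lower, with later counts under 3 set to 3. The middle tier was bounded from below at day -5 only, so clonotypes near 0.01% could fall out of it but could enter it only at the other time, and its falls are read with the risers from the low tier given further on.

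The clonotypes that fell most in the high tier are shown because they are the exceptions in that tier.
Nebula fall 1, TRBV12-2 with TRBJ1-2: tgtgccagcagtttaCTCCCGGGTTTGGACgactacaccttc
Nebula fall 2, TRBV24-1 with TRBJ2-2: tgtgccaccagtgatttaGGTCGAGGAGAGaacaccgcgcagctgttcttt
Amazo fall 1, TRBV5-6 with TRBJ2-6: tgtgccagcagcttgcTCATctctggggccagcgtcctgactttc
Amazo fall 2, TRBV27 with TRBJ2-5: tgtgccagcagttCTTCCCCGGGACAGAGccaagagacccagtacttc
Amazo fall 3, TRBV27 with TRBJ1-4: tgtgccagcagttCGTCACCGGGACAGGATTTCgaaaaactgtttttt
Nebula fall 1 went from 483 counts (0.113%) to 122 counts (0.0473%), 2.40-fold lower (1.96 to 2.95). Nebula fall 2 went from 476 counts (0.112%) to 137 counts (0.0531%), 2.10-fold lower (1.74 to 2.56). Both lay just inside the 0.1% limit at day -5. The next largest fall, of a TRBV4-3 clonotype with TRBJ2-1 from 798 counts (0.187%) to 280 counts (0.108%), was 1.73-fold and so under the limit for a call.

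Amazo fall 1 went from 424 counts (0.122%) to 118 counts (0.0389%), 3.13-fold lower (2.55 to 3.87). Amazo fall 2 went from 876 to 291 counts and was 2.62-fold lower (2.30 to 3.01), and Amazo fall 3 went from 730 to 256 counts and was 2.49-fold lower (2.15 to 2.88). The remaining pair of 2-fold falls, named after their values were seen, used TRBV4-2 with TRBJ1-6 (2198 to 848 counts, 2.26-fold lower) and TRBV23-1 with TRBJ2-5 (589 to 250 counts, 2.05-fold lower). The TRBV4-2 clonotype was the only 2-fold fall that began above 0.5%, at 0.631%. All 5 were present in both Rocket libraries.

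Among clonotypes of at least 0.1% in either library, the largest rises stayed under 2-fold. In the middle tier, 7 Nebula and 10 Amazo clonotypes were at least 2-fold higher. Of the clonotypes of at least 0.1% in the Nebula pair, a TRBV24-1 clonotype with TRBJ2-7 went from 634 counts (0.149%) to 651 counts (0.252%), 1.70-fold higher (1.52 to 1.89), followed by Nebula 1 and by a TRBV5-6 clonotype with TRBJ2-4 that went from 0.0821% to 0.117%. A TRBV13 clonotype with TRBJ2-2 of the Amazo pair went from 1303 counts (0.374%) to 1870 counts (0.616%), 1.65-fold higher (1.53 to 1.77), followed by Amazo 3 and by a TRBV5-4 clonotype with TRBJ2-4 that went from 0.319% to 0.440%.

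**Figure D2:**
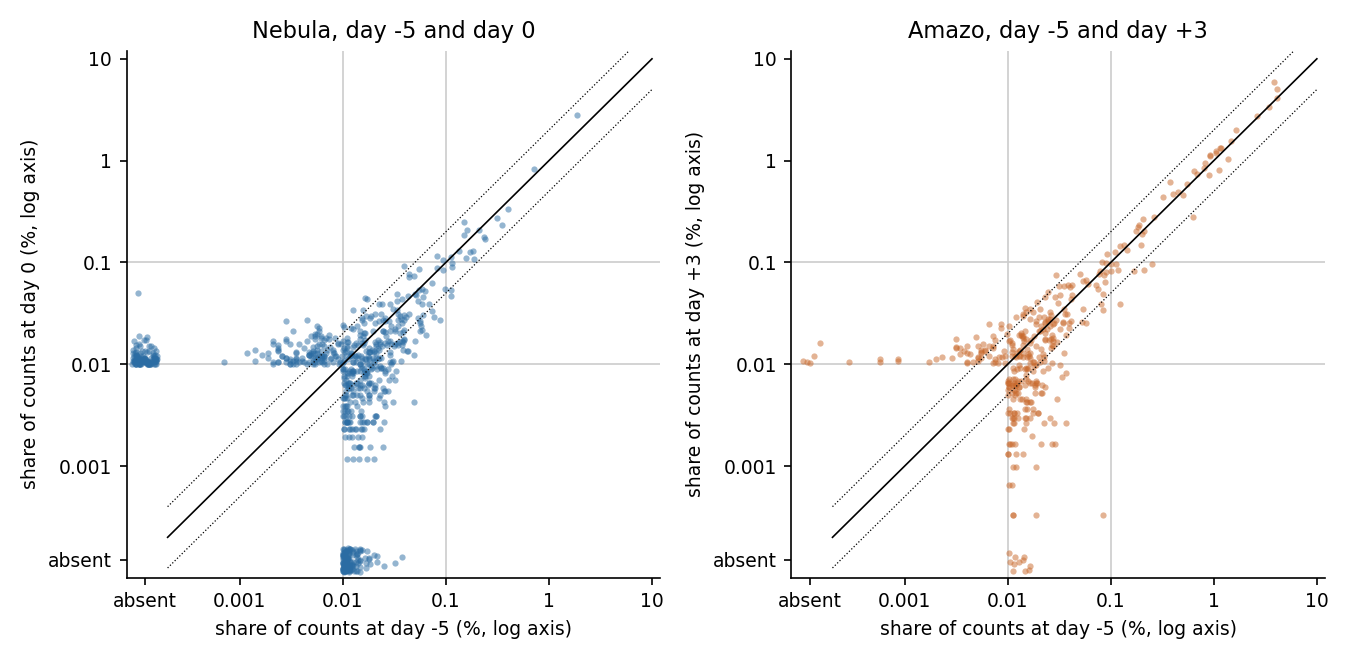
Share of counts at day -5 (horizontal axis, %, log axis) against the share at the later time (vertical axis, %, log axis) for every clonotype of at least 0.01% in either library of the Nebula pair (left) and the Amazo pair (right). The solid line marks equal shares, dotted lines mark 2-fold changes, grey lines mark 0.01% and 0.1%, and clonotypes absent from a library are spread along the edge. Points above 0.1% follow the line in both pairs, and the strip of absent clonotypes is dense in the Nebula pair (127 lost, 110 new) and sparse in the Amazo pair (11 lost, 5 new).

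Movement between tiers was mostly by 1 step. Of the 21 high-tier Nebula clonotypes 17 were still in the high tier at day 0 and 4 were in the middle tier. Of the 47 high-tier Amazo clonotypes 39 stayed in the high tier and 8 were in the middle tier at day +3. None of them dropped to the low tier. In the other direction, 2 middle-tier clonotypes of each pair reached the high tier, and 121 low-tier Nebula clonotypes and 52 low-tier Amazo clonotypes reached the middle tier. No low-tier clonotype reached the high tier in either pair. The highest count that a low-tier clonotype reached later was 70 in the Nebula pair and 75 in the Amazo pair.

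Middle-tier clonotypes that were lost had been smaller at day -5 than those that persisted, with a median of 48 against 74 counts in the Nebula pair and of 45 against 59 counts in the Amazo pair. The lost clonotypes with the most counts are shown because they mark how large a clonotype could be at day -5 and still be missing later.
Nebula lost 1, TRBV23-1 with TRBJ2-2: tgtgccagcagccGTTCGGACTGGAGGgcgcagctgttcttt
Nebula lost 2, TRBV20-1 with TRBJ2-5: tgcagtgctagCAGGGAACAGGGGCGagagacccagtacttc
Nebula lost 3, TRBV23-1 with TRBJ1-3: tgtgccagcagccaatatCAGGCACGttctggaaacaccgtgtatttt
Amazo lost 1, TRBV7-3 with TRBJ2-4: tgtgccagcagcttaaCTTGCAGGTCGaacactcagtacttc
Amazo lost 2, TRBV23-1 with TRBJ1-1: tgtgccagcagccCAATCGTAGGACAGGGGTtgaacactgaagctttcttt
Amazo lost 3, TRBV20-1 with TRBJ1-2: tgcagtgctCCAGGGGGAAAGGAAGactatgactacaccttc
Nebula lost 1, 2 and 3 held 160, 136 and 106 counts at day -5 and 0 at day 0. Against a floor of 3 counts per library, their shares were at least 32.3-fold, 27.5-fold and 21.4-fold lower. This floor treats each count as its own molecule. With several counts per molecule the bounds would be smaller, and the count peak was 7 at Nebula day 0. None of the 3 had a count in the shallower day -4 library either, so they were seen at day -5 alone. Amazo lost 1, 2 and 3 held 58, 56 and 51 counts and then 0. Against the same floor, and with the same limit, they were at least 16.9-fold, 16.3-fold and 14.8-fold lower. In contrast to the Nebula clonotypes, these were present in the Rocket day -5 library, with 15, 98 and 16 counts.

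Of all 11 lost middle-tier clonotypes of the Amazo pair, 10 were present in a Rocket library, and the remaining 1, which used TRBV2-2 with TRBJ2-5 and held 50 counts at day -5, had 2670 counts in the Amazo day -4 library. That clonotype belonged to a group of 9 in the Amazo day -5 middle tier whose share was at least 10 times larger in the Amazo day -4 library. The 9 held 39 to 292 counts at day -5, 730 to 26061 counts at Amazo day -4 and 0 to 19 counts at day +3. Together they made up 16.6% of Amazo day -4 counts, 0.249% of Amazo day -5 counts and 0.0155% of Amazo day +3 counts. The largest is shown because it had the deepest fall among Amazo clonotypes of at least 0.01% that were found again.
Amazo shared with day -4, TRBV5-1 with TRBJ1-4: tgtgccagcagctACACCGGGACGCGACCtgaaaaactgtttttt
It held 292 counts at day -5 and 1 count at day +3, against 26061 counts (6.64%) at Amazo day -4. The ratio of day -5 to day +3 share was 255 (45.3 to 10089), and with later counts under 3 set to 3, as for the calls, the log2 ratio of day +3 to day -5 share was -6.41. How these sequences came to be in the day -5 library was not tested. Without the 9, 244 of 254 middle-tier Amazo clonotypes persisted (96.1%, 92.9 to 97.8%) and 99 were at least 2-fold lower (39.0%).

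Newcomers, clonotypes of the later library with no count at day -5, were also small. They made up 0 of 19 high-tier clonotypes at Nebula day 0 (0 to 16.8%) and 0 of 41 at Amazo day +3 (0 to 8.57%). In the middle tier of the later library they were 110 of 422 (26.1%, 22.1 to 30.5%) in the Nebula pair and 5 of 196 (2.55%, 1.09 to 5.83%) in the Amazo pair. In the low tier they were 94.7% and 92.2%. All newcomers together held 80.7% of Nebula day 0 counts and 45.3% of Amazo day +3 counts.

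The newcomers with the most counts are shown because they are the largest clonotypes that appeared after day -5.
Nebula new 1, TRBV3-4 with TRBJ1-1: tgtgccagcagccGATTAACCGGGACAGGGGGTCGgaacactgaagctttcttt
Nebula new 2, TRBV11-3 with TRBJ2-5: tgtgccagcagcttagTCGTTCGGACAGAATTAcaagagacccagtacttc
Nebula new 3, TRBV2-1 with TRBJ2-4: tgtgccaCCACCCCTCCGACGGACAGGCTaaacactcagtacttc
Amazo new 1, TRBV27 with TRBJ2-4: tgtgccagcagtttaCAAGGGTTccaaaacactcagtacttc
Amazo new 2, TRBV2-3 with TRBJ2-6: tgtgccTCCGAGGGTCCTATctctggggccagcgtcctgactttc
Amazo new 3, TRBV7-5 with TRBJ2-1: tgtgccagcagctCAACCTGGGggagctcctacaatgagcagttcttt
Nebula new 1 stood apart, with 130 counts (0.0504%) at day 0 and none in the day -4 library or in any library of another repertoire. Nebula new 2 and new 3 held 49 and 48 counts at day 0 and had 7 and 2 counts at day -4. The 2 counts of Nebula new 3 lie under the floor of 3 counts. Whether such low counts were carried between libraries was not tested. Among all 110 middle-tier newcomers of the Nebula pair, 30 (27.3%) were in the day -4 library. Amazo new 1, 2 and 3 held 49, 37 and 33 counts at day +3. Of the 5 middle-tier newcomers of the Amazo pair, the other two used TRBV4-1 with TRBJ2-7 (32 counts) and TRBV5-1 with TRBJ1-1 (31 counts), and 3 of the 5 were present in a Rocket library. In the library labelled Amazo day +3, then, the largest clonotype absent at day -5 held 0.0161% of counts.

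What persisting clonotypes had in common was examined in the low tier, which was large enough for it. A low-tier clonotype that persisted was also far more often present in a further library of the same repertoire. In the Nebula pair 508 of 1552 persisting clonotypes (32.7%, 30.4 to 35.1%) and 587 of 28289 lost ones (2.08%, 1.92 to 2.25%) were in the day -4 library. Likewise, 62.3% of persisting and 5.64% of lost Amazo clonotypes were in a Rocket library. Presence in other repertoires was low in both classes, at 2.45% of persisting and 1.01% of lost clonotypes in the Nebula pair and 1.45% and 1.06% in the Amazo pair. Such shared clonotypes included the leading ones of other libraries, since low-tier Nebula clonotypes of day -5 included sequences that held 32.5% of Amazo day -5 counts and 44.3% of Rocket day -5 counts. Whether these were carried between libraries was not tested.

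Lost clonotypes were more often unable to encode a receptor. A productive CDR3 is in frame and free of stop codons, while an out-of-frame one usually comes from the second TRB allele of a T cell, whose RNA is subject to nonsense-mediated decay. In the low tier 95.7% of persisting Nebula clonotypes (94.6 to 96.6%) and 90.8% of lost ones (90.5 to 91.1%) were productive, and in the Amazo pair 95.8% and 92.5% were. Out-of-frame clonotypes of the Nebula low tier were also smaller, with a median count of 9 against 12 for productive ones. Among clonotypes at 1 times the count peak, 791 of 17142 productive Nebula clonotypes (4.61%, 4.31 to 4.94%) and 25 of 1021 out-of-frame ones (2.45%, 1.66 to 3.59%) persisted. In the Amazo pair these were 522 of 13420 (3.89%, 3.58 to 4.23%) and 13 of 800 (1.63%, 0.952 to 2.76%). The intervals did not overlap in either pair. For clonotypes in frame with a stop codon the values were 3.28% (1.74 to 6.12%) and 2.19% (0.747 to 6.24%), whose wide intervals include those of productive clonotypes.

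Out-of-frame clonotypes that were large persisted like the others. In the middle tier 15 of 20 out-of-frame Nebula clonotypes and 8 of 8 Amazo ones were found again. The high tier held 1 in the Nebula pair, which used TRBV11-1 with TRBJ1-6 and went from 474 to 290 counts (0.111% to 0.112%). It held 2 in the Amazo pair, named after their values were seen, which used TRBV4-3 with TRBJ2-7 (728 to 617 counts) and TRBV5-3 with TRBJ1-1 (657 to 708 counts). All 3 changed by less than 1.5-fold.

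Mean CDR3 length differed little between persisting and lost low-tier clonotypes. The mean length of productive low-tier clonotypes was 43.4 nucleotides in both classes of the Nebula pair (SE 0.136 and 0.0331), a difference of 0.00747 nucleotides. In the Amazo pair persisting clonotypes averaged 43.7 nucleotides and lost ones 43.5, a difference of 0.196 nucleotides. In the Nebula middle tier the difference was larger, with 43.8 ± 0.275 nucleotides (SE, 343 persisting) against 42.6 ± 0.453 (SE, 122 lost), which is 1.16 nucleotides or less than 1 codon. The Amazo middle tier held too few lost clonotypes (11) for a comparison. By length class, 5.08% of productive low-tier Nebula clonotypes of 42 nucleotides persisted and 6.14% of those of 48 nucleotides did (4.58 to 5.64% and 5.40 to 6.97%), and the Amazo values were 5.31% and 5.97% (4.84 to 5.84% and 5.32 to 6.69%). The intervals of these classes overlapped in both pairs. Of Amazo clonotypes of 36 nucleotides, 4.07% persisted (3.33 to 4.96%), an interval below those of 39 nucleotides (5.75%, 5.15 to 6.42%), 45 nucleotides (5.87%, 5.37 to 6.42%) and 48 nucleotides. In the Nebula pair the class of 36 nucleotides stood at 5.53% (4.61 to 6.61%), and its interval overlapped those of the other classes named.

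Bases aligned to no V, D or J gene were about as many in persisting as in lost clonotypes. They can include D bases where no D gene was called, as for 26.3% of persisting and 25.6% of lost low-tier Nebula clonotypes. The mean number of bases aligned to no gene segment was 7.45 ± 0.110 (SE) in persisting and 7.77 ± 0.0275 (SE) in lost productive low-tier clonotypes of the Nebula pair. In the Amazo pair it was 7.18 and 7.25. The difference exceeded these standard errors in the Nebula pair and did not in the Amazo pair (SE 0.0964 and 0.0239), where SE is taken over clonotypes of a library, which are not replicates. The Nebula order changed with the count. Persisting and lost clonotypes held 6.96 and 8.18 such bases at 0 times the count peak, and 7.41 and 7.73 at 1 times. At 2 times the peak they held 7.81 and 7.49, and in the middle tier 8.20 and 7.85. The Amazo values were 6.99 and 7.25 at 1 times the peak, and 7.21 and 7.15 at 2 times.

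**Figure D3:**
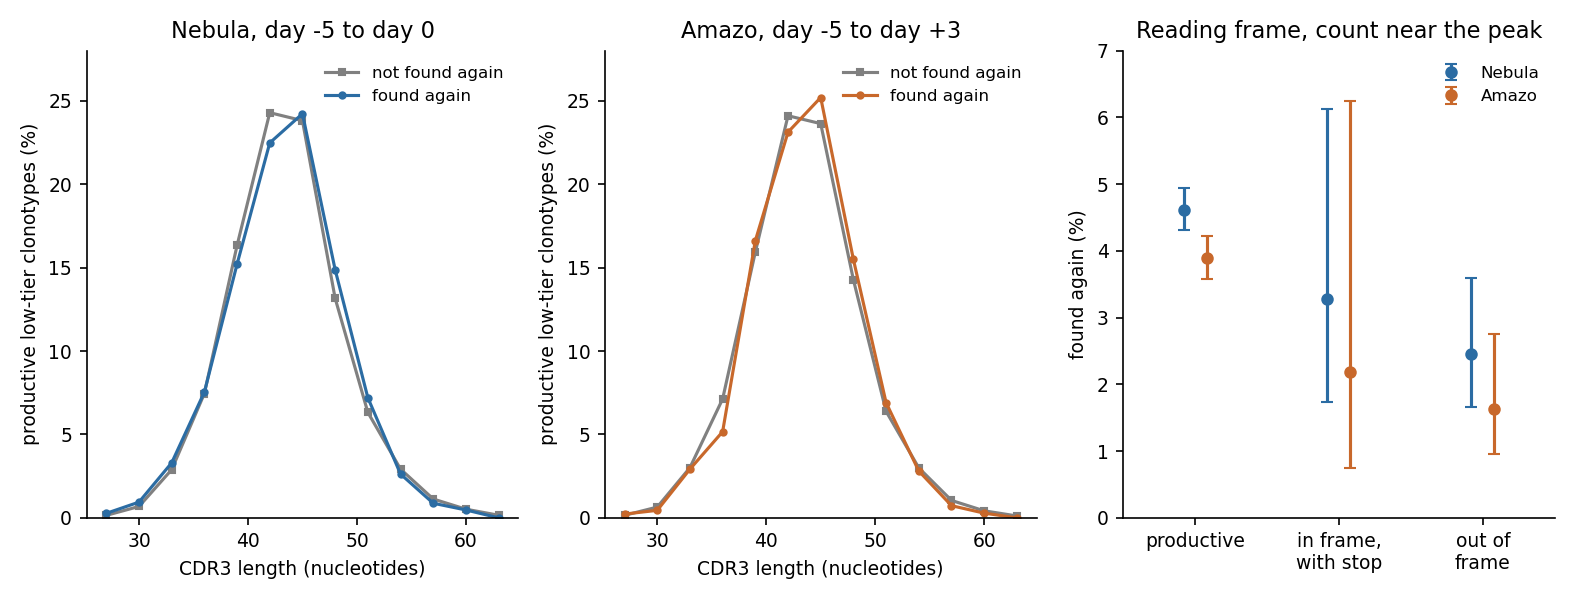
Left and middle: CDR3 length (horizontal axis, nucleotides) of productive low-tier clonotypes found again (colored) or not found again (grey) as a percentage of each class, from 27 to 63 nucleotides, for the Nebula and Amazo pairs. Right: percentage found again, with 95% Wilson intervals, of low-tier clonotypes at 1 times the count peak by reading frame. Lengths of both classes lie close to each other, and out-of-frame clonotypes lie below productive ones in both pairs (2.45% against 4.61%, and 1.63% against 3.89%).

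The persisting share varied with the V gene. Among genes with at least 200 low-tier clonotypes, the persisting share ranged from 2.85% (TRBV19) to 8.76% (TRBV5-6) over 39 genes in the Nebula pair, and from 3.19% (TRBV28) to 8.52% (TRBV5-6) over 42 genes in the Amazo pair. Counting error widens such ranges, since many genes held few clonotypes. The V gene is the one called at day -5, while persistence was matched on CDR3 nucleotides alone. Of persisting low-tier clonotypes, 1497 of 1552 (96.5%) in the Nebula pair also matched a later clonotype in V gene, J gene and amino acids. In the Amazo pair 1781 of 1861 (95.7%) did, so a few had another V or J call later. The interval lay off the share of the whole tier for 2 genes above and 2 below it among 39 in the Nebula pair, and for 5 above and 4 below among 42 in the Amazo pair. The Amazo genes included TRBV23-1, the most used of the low tier, at 3.84% (3.19 to 4.62%) of 2785 clonotypes, whereas it stood at 5.29% (4.55 to 6.13%) of 3122 in the Nebula pair. Over the 37 genes with values in both pairs, Pearson's r between the pairs was 0.58 and Spearman's rho 0.51, given as a description, since the genes share libraries and depths. Relative to the number expected from the counts of their clonotypes, 15 of the 37 genes lay above 1 in both pairs, 10 lay below in both and 12 lay on opposite sides. For that ratio of observed to expected number, r was 0.60 and rho 0.57. Among clonotypes at 1 times the count peak, which left 25 genes, r was 0.31.

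TRBV5-6 had the highest persisting share in both pairs, with 29 of 331 low-tier clonotypes (8.76%, 6.17 to 12.3%) in the Nebula pair and 35 of 411 (8.52%, 6.19 to 11.6%) in the Amazo pair. Both intervals lay above the share of the whole tier. TRBV5-6 clonotypes were also found most often of all 42 genes in the Rocket day -5 library (7.54%) and the Rocket day -4 library (11.4%), and ranked second of 39 genes in the Nebula day -4 library (6.65%). TRBV30 came 3 of 39 genes in the Nebula pair and 3 of 42 in the Amazo pair, at 7.43% (5.04 to 10.8%) and 7.27% (4.80 to 10.9%), with intervals that include the tier's share. It ranked 1 of 39 genes at Nebula day -4 (7.12%). In the Rocket day -5 library it ranked only 20 of 42, at 4.50% against 4.48% of the whole tier. In the Rocket day -4 library it ranked 13 of 42, at 7.61% against 6.71%. TRBV12-3 ranked second in the Nebula pair at 8.68% (5.95 to 12.5%) but was near its tier in the Amazo pair at 5.58% (3.75 to 8.24%). TRBV10-3 ranked second in the Amazo pair at 8.26% (5.35 to 12.5%) and had fewer than 200 low-tier clonotypes in the Nebula pair. Many TRBV5-6 and TRBV12-3 reads aligned to several V genes, so these 2 genes may include clonotypes of their near copies.

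At the low end the pairs also shared genes. TRBV19 persisted at 2.85% (1.76 to 4.58%) in the Nebula pair and 3.80% (2.54 to 5.63%) in the Amazo pair. TRBV28 persisted at 3.52% (1.92 to 6.36%) and 3.19% (1.94 to 5.20%), and TRBV6-1 at 3.77% (2.92 to 4.84%) and 3.41% (2.26 to 5.10%). TRBV6-1 was the only gene whose interval lay below its tier in both pairs. TRBV3-2 was low in the Nebula pair alone (3.44% against 5.44% in the Amazo pair), and TRBV3-1 in the Amazo pair alone (3.22% against 5.15% in the Nebula pair). TRBV7-7 stood at 3.35% (1.97 to 5.65%) in the Amazo pair. In the further libraries of the same repertoires TRBV6-1 ranked 33 of 39 genes at Nebula day -4, and 37 and 38 of 42 in the Rocket libraries, whereas TRBV28 ranked 38 of 39 but 28 and 17 of 42.

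**Figure D4:**
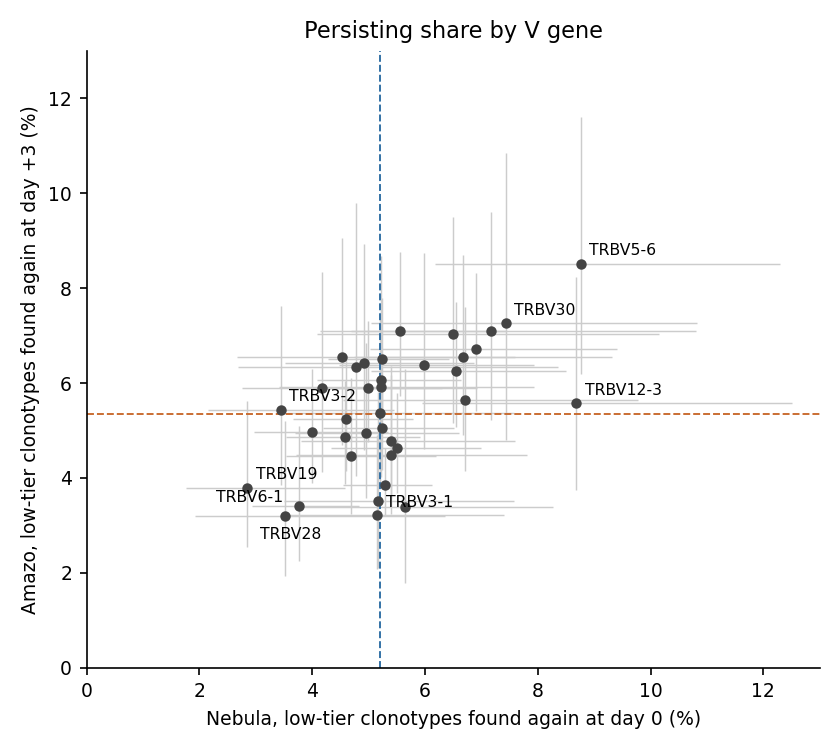
Percentage of low-tier day -5 clonotypes found again in the Nebula pair (horizontal axis) and in the Amazo pair (vertical axis) for the 37 V genes with at least 200 low-tier clonotypes in both. Lines on the points are 95% Wilson intervals, and dashed lines give the whole low tier (5.20% and 5.35%). TRBV5-6 lies at the upper right, with TRBV19, TRBV28 and TRBV6-1 at the lower left.

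J genes did not differ alike in the pairs. The persisting share of low-tier clonotypes ranged from 3.94% (TRBJ1-5, 3.24 to 4.77%) to 6.69% (TRBJ1-6, 5.23 to 8.52%) in the Nebula pair, and from 4.28% (TRBJ1-1, 3.44 to 5.31%) to 5.99% (TRBJ2-5, 5.20 to 6.89%) in the Amazo pair. In the Amazo pair TRBJ1-5 stood at 5.19% and TRBJ1-6 at 4.86%, in the reverse order. The interval lay off the tier's share for 2 of 13 J genes in the Nebula pair (TRBJ1-6 above, TRBJ1-5 below) and 1 of 13 in the Amazo pair (TRBJ1-1 below). Over the 13 J genes Pearson's r between the pairs was -0.12 and Spearman's rho -0.14.

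Some lost clonotypes had a later counterpart with the same V gene, J gene and translated CDR3. Clonotypes that are not productive were included in this match. Of the lost low-tier clonotypes, 120 in the Nebula pair (0.424%) and 119 in the Amazo pair matched a later clonotype of another nucleotide sequence in this way. When matching was done on the translated amino acids together with the V and J genes, persistence in the low tier was 5.33% in the Nebula pair and 5.35% in the Amazo pair.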

How the data were processed

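Per the labels and the study's methods, cDNA was made by template switching from RNA of frozen blood lymphocytes, the TRB VDJ region was amplified with a constant-region primer, and pooled libraries were sequenced on a MiSeq. The authors used Trimmomatic for read trimming and MiXCR with a rhesus TRB reference for clone assembly, and the version of MiXCR is not given in the sources used here. The deposited values are a count of sequences and a clone fraction per clonotype, and the fraction equalled count over total in each library. The methods describe merging of sequences by molecular barcode and the removal of clones under 0.5%. The tables hold no barcode column and list clonotypes far below that threshold, so the filter was taken as not applied, and whether the counts were merged by barcode was not tested. If they were not, amplification inflates the counts of single molecules. A figure legend of the study places the second infusion on day 0, and the series text (day 1) was followed.

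Clonotypes were matched by identical CDR3 nucleotide sequence, and V and J genes were the first hits in the tables. The 4 libraries held 258096 to 426198 counts. The count peak was the most frequent count of at least 2. Each pair has 1 library per time point, so no test between times was made, and a change was called at 2-fold, with later counts under 3 set to 3 for that call. V genes were described with at least 200 low-tier clonotypes. Named clonotypes per pair were the 5 largest at day -5, the 3 largest falls and rises of at least 0.1% in either library, and the 3 lost and 3 new ones with most counts. Named V genes had the 3 highest and 3 lowest persisting shares of a pair, and TRBV6-1 was added after its values were seen. The pairs, tiers and rules were chosen with earlier results of these data known. Alternatives were amino-acid clonotypes, at least 2 counts, productive clonotypes, equal depth (mean of 20 draws), near copies left out (1 base from a clonotype at least 100 times larger), at least 3 later counts, and folds of 1.5 and 3. Counts divided by the peak, and clonotypes at least 10 times larger in another repertoire left out, were added after seeing the data. The calculations were checked on simulated libraries. Python 3.11.15, numpy 2.4.6, pandas 2.3.3, scipy 1.17.1 and matplotlib 3.10.9 were used.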

Additional observations from a re-analysis of the deposited data

How the results depend on the processing

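Of 218 alternative values for 34 results, 204 stayed within the counting interval of the reported value (within 1.5 times for counts of clonotypes and ranges over genes), 14 moved beyond it and 0 reversed. The 204 include high-tier persistence (100%) and high-tier newcomers (0%), which were the same under every setting. Settings on low counts could hardly move these, so the tally overstates how far the results were tried. Low-tier persistence of 5.20% in the Nebula pair became 5.76% with at least 2 counts, 5.56% with counts over the peak and 5.46% at equal depth. That of 5.35% in the Amazo pair became 5.70% with at least 2 counts and 5.08% with at least 3 later counts. Middle-tier persistence became 68.5% in the Nebula pair with productive clonotypes only, which rescales all shares, and 92.4% in the Amazo pair with counts over the peak. Newcomers of the low tier became 94.2% (Nebula) and 91.7% (Amazo) with at least 2 counts, and 91.8% (Amazo) with counts over the peak. At 3-fold, high-tier falls numbered 0 in the Nebula pair and 1 in the Amazo pair, and at 1.5-fold, 2 high-tier clonotypes rose in each pair. TRBV5-6 and TRBV30 lay above, and TRBV19, TRBV28 and TRBV6-1 below, the persisting share of their tier in both pairs under the reported and all 6 alternative settings run for V genes. These genes were picked for their shares in the same libraries, and each setting keeps mostly the same clonotypes. Their direction was therefore close to fixed, and these settings do not test it. No near copies were found in either day -5 library, and leaving them out, which changed no value, is not counted here.

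No paired analysis was possible because each time point of a pair has 1 library, and no replicate was left out. Time and library cannot be told apart. Absence from the later library is limited to 3 counts only if each count is its own molecule. The number of molecules behind a count is not known. The Amazo pair rests on libraries whose repertoire matched the Rocket libraries and not the third Amazo library.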
